A study of Equus caballus with 13 samples.

Results

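The 9 genes ZFP36, ZFP36L1, ZFP36L2, ELAVL1, KHSRP, TIA1, TIAL1, ZC3H12A and PUM2 encode proteins that bind messenger RNA and set how long it lasts or how well it is translated. They were chosen by name from the authors' 2 tables of RNA kinetics, and all 9 were listed in both tables, among 11056 genes in the first and 11249 in the second. The cells were chondrocytes, the cells of cartilage, isolated from horses and kept in culture for 2 days. Every culture was wild type by its label and received 4-thiouridine (4sU), a uridine analogue that is built into new RNA, for 4 h. The groups were old female (5 samples), young female (5 samples) and young male (3 samples), and ages in years were not given. Culture itself is a limit of all groups as a model of cartilage, since each sample was cells that had been released from their matrix.

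AU-rich elements are stretches of A and U in the 3′ untranslated regions of many short-lived messenger RNAs, including those of cytokines and early-response genes. Proteins of the ZFP36 family (ZFP36 is also called tristetraprolin) bind these elements through CCCH zinc fingers and recruit the enzymes that shorten the poly(A) tail, so that the RNA decays. ELAVL1, also called HuR, binds similar elements and is known mostly for protecting the RNA, and KHSRP is a KH-domain protein that recruits decay enzymes. TIA1 and TIAL1 hold translation back and gather in stress granules. The label of AU-rich element binding covers 7 of the 9 genes well. ZC3H12A, also called Regnase-1, is a CCCH-type nuclease known for cutting stem-loops in inflammatory RNAs, and PUM2 is a Pumilio protein known for its own recognition element.

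For each gene and group the tables gave 1 synthesis rate and 1 half-life, with 0 columns of values per sample. The values below are therefore the authors' estimates for a group, carry no SD, and could not be tested against the spread between animals, and depth is unknown. Half-lives were read as hours. Synthesis rates are in arbitrary units, and whether they were divided by transcript length was not given in the sources used here, so no gene is said to be made faster or to be more abundant than another. The sums over marker genes and the search for similar genes below do combine unscaled rates of different genes, and are descriptions with that limit. A derived quantity, the implied level, is the synthesis rate times the half-life divided by ln 2, and it assumes that RNA levels were steady during labelling. All 9 chondrocyte markers examined, among them COL2A1, ACAN and SOX9, were listed in both tables. CD14 alone of 5 macrophage or leukocyte markers (1.20-fold in old, 1.11-fold in male cells) and VWF alone of 4 endothelial markers (1.20-fold and 1.03-fold) were listed. By age, 6 of 9 chondrocyte markers had a lower implied level (median log2 ratio −0.48), as had 5 of 5 listed fibroblast markers (−1.12). By sex, 8 of 9 chondrocyte markers (median 1.48) and 4 of 5 fibroblast markers (1.39) were higher in male cells. By age and by sex, the summed levels were 0.909-fold and 2.48-fold for the chondrocyte markers and 0.470-fold and 2.47-fold for the fibroblast markers. The osteoblast marker IBSP was 1.71-fold in old and 4.55-fold in male cells. Of 3 smooth muscle markers 1 was listed by age (0.917-fold) and 3 by sex, with log2 ratios from −0.77 to 4.82. Of 2 adipocyte markers 0 were listed. The part of these marker differences in the results below was not tested. The 13 samples carried 12 batch labels, of which 1 (batch 10, a young female and a young male) spanned 2 groups, so batch and group cannot be told apart.

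The half-lives split the 9 genes into a short-lived set of zinc-finger proteins and a set closer to the typical transcript. In young female cells of the age table, the messenger RNAs of the 4 CCCH zinc-finger proteins had half-lives under 1 h, a range that held 5.95% of all listed genes. ZC3H12A had the shortest at 0.545 h, followed by ZFP36L2 at 0.639 h, ZFP36L1 at 0.688 h and ZFP36 at 0.913 h. Only 1.10% of genes had a half-life shorter than that of ZC3H12A and 4.06% one shorter than that of ZFP36. The next member was PUM2 at 1.65 h, 1.81 times the half-life of ZFP36. TIAL1 followed at 1.82 h, TIA1 at 2.09 h, KHSRP at 3.35 h and ELAVL1 at 3.42 h. All 9 were below the median of all genes, 3.64 h, and the longest-lived member lasted 6.27 times as long as the shortest-lived. The zinc-finger genes and PUM2 were also below the lower quartile of all genes, 1.78 h.

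**Figure D1:**
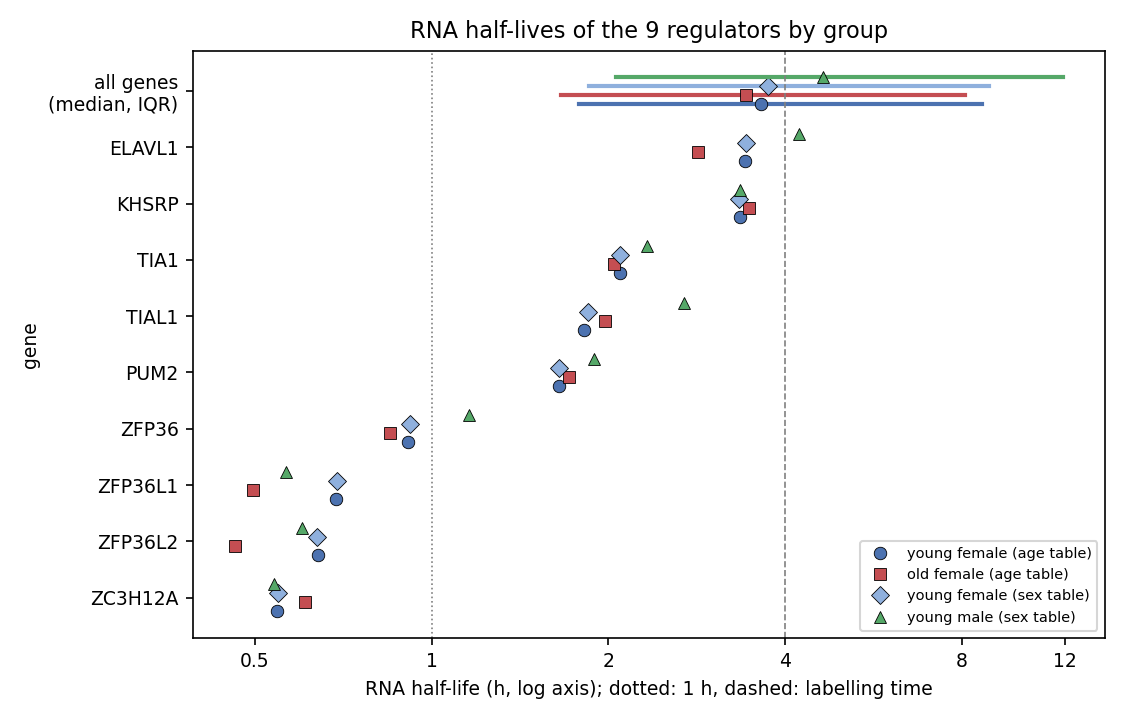
RNA half-life in hours (log axis) of each gene in the 4 group columns of the 2 tables, 1 point per group value, with the median and interquartile range of all listed genes in the top row. The 4 zinc-finger genes sit between 0.462 and 1.16 h in every column and the other 5 between 1.65 and 4.23 h.

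The ranges of the 2 sets did not overlap in any group column. In male cells, though, the gap between the sets was 1.63-fold. The step within the zinc-finger set from ZFP36L2 (0.602 h) to ZFP36 (1.16 h) was wider, so the largest break there fell inside that set. In old cells the zinc-finger genes ranged from 0.462 to 0.850 h and the others from 1.71 to 3.47 h. In male cells the ranges were 0.539 to 1.16 h and 1.89 to 4.23 h, and ZFP36 was the only zinc-finger member past 1 h. Order within each set did change. ZC3H12A was the shortest-lived of the 9 in young female and young male cells, while in old cells ZFP36L2 and ZFP36L1 were both shorter-lived. ELAVL1 was the longest-lived in young female and male cells, and KHSRP was in old cells. In male cells TIAL1 (2.70 h) had a longer half-life than TIA1 (2.32 h), the reverse of their order in both female groups. Without replicate values, neighbours in this order cannot be said to differ beyond the spread between animals.

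With half-lives so far below the labelling time, little RNA made before labelling is left to be measured. Under simple exponential decay, the share of ZFP36L2 RNA that would survive 4 h was 1.31% in young female cells of the age table and 0.247% in old ones. For ZFP36L1 these shares were 1.78% and 0.375%, for ZC3H12A 0.618% and 1.06%, and for ZFP36 4.79% and 3.84%. For ELAVL1 and KHSRP they were 44.4% and 43.7% in young female cells. Ratios of half-life for the zinc-finger genes thus rest on small remaining fractions.

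The 5 young female samples were estimated in both tables, which gives a repeat of the computation on the same cells. Half-lives of the 9 genes differed by at most 1.40% between tables (TIAL1, 1.82 and 1.85 h), and those of the zinc-finger genes by at most 0.638%. Synthesis rates were 0.06 to 0.09 log2 units higher in the age table, near the shift of 0.07 over all shared genes. This repeat contains no variation between animals.

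The first table addresses the effect of age among females. ZFP36L2 stood apart from the other 8: its synthesis rate was 39671 in old against 12652 in young female cells, 3.14-fold higher (log2 ratio 1.65). Its half-life was 0.462 against 0.639 h (0.722-fold), so the implied level was 2.26-fold higher (log2 ratio 1.18), at 26429 against 11670. It was the single member at least 2-fold changed, a log2 ratio of at least 1 in either direction, for synthesis rate, where 7.52% of all genes were past that threshold. The same held for implied level, with 4.12% of all genes past it. For half-life 0 of the 9 members and 3.53% of all genes were past it. Of the 11056 genes, 214 had a higher log2 ratio of synthesis rate than ZFP36L2 and 144 a higher one of implied level. Among the 560 genes with half-lives under 1 h in both groups, 69 had a higher ratio of synthesis rate and 7 a higher ratio of implied level. With half-lives limited to 1 to 24 h, the range set for what the labelling can resolve, ZFP36L2 is not admitted and 0 of the remaining 5 members were past the threshold.

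ZFP36L1 differed from young female cells in the same directions, with smaller ratios of synthesis rate and implied level and a half-life ratio of the same size. Its synthesis rate was 22229 in old and 12799 in young female cells (log2 ratio 0.80), its half-life 0.496 and 0.688 h (−0.47), and its implied level 1.25-fold higher. The half-life ratios of ZFP36L1 and ZFP36L2 were alike, at 0.721-fold and 0.722-fold, while their synthesis ratios lay 0.85 log2 units apart. Of all genes, 10.1% had a lower half-life ratio than ZFP36L1 and 10.2% a lower one than ZFP36L2. Among the 560 genes with half-lives under 1 h in both groups, these shares were 17.9% and 18.0%. ZFP36, the founding member of the family, showed neither shift. Its synthesis rate was 1714 in old and 1722 in young female cells, its half-life 0.850 and 0.913 h, and its implied level 0.928-fold. The log2 ratios of ZFP36 for half-life and synthesis rate were −0.10 and −0.01, or 0.04 and −0.20 relative to genes of similar half-life.

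**Figure D2:**
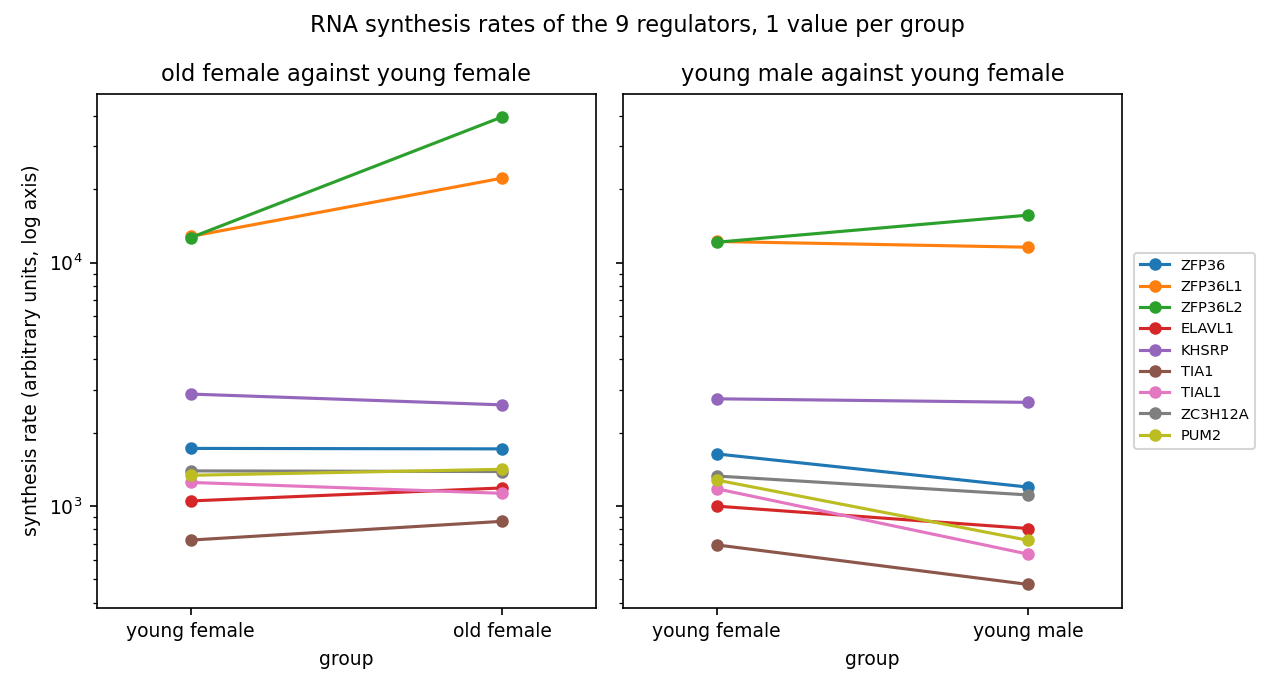
Synthesis rate in arbitrary units (log axis) of each gene in young female and old female cells (left, age table) and in young female and young male cells (right, sex table), 1 value per group joined by a line. The line of ZFP36L2 climbs from 12652 to 39671 on the left, and on the right it is the one line that ends above its start.

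The nuclease ZC3H12A had a synthesis rate of 1383 in old and 1392 in young female cells and had a half-life of 0.609 against 0.545 h, giving an implied level 1.11-fold higher. Its log2 ratios of half-life and synthesis rate were 0.16 and −0.01, or 0.30 and −0.20 relative to genes of similar half-life. For the stabilising protein ELAVL1, half-life was 2.84 h in old against 3.42 h in young female cells and synthesis rate 1184 against 1047. These offset each other to an implied level of 0.940-fold. KHSRP, which promotes decay, lasted 3.47 against 3.35 h and was made at a rate of 2600 against 2880, for an implied level of 0.935-fold. TIA1 had a synthesis rate of 864 against 723 and a half-life of 2.04 against 2.09 h, so its implied level was 1.17-fold higher. Its relative TIAL1 had a synthesis rate of 1126 against 1248, a half-life of 1.98 against 1.82 h and an implied level of 0.980-fold. PUM2 had a half-life of 1.71 against 1.65 h, a synthesis rate of 1413 against 1335 and an implied level 1.10-fold higher. For these 6 genes and ZFP36 the implied level differed from young female cells by 2.01% to 16.6%. In all, old cells had the higher implied level for 5 of the 9 members, against 50.7% of all genes. The median log2 ratio was 0.14 against 0.00 for all genes, or −0.03 over the 5 members with half-lives of 1 to 24 h. Half-life was shorter in old cells for 5 of the 9, against 63.1% of all genes, with a median of −0.03 against −0.08. Relative to the median of all genes 4 were shorter-lived and the median was 0.05, and relative to genes of similar half-life 3 were and it was 0.04, so the direction of this median turns with the centring.

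The second table addresses the effect of sex among young animals. No member was at least 2-fold changed in half-life, synthesis rate or implied level, where 7.58%, 12.2% and 4.61% of all genes were. The implied level was lower in male cells for 8 of the 9 genes, all but ZFP36L2 (ELAVL1 by 0.110%), against 49.5% of all genes. The median log2 ratio was −0.28 against 0.01 for all genes. In this comparison half-lives of all genes were shifted upward by a median of 0.27 log2 units and synthesis rates downward by 0.28, and the shift of implied level depended on half-life. After each ratio was taken relative to genes of similar half-life, 5 of the 9 were lower and the median was −0.02, so the count of 8 of 9 is not kept under that centring.

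PUM2 had the lowest ratio of implied level, 0.649-fold (log2 ratio −0.62, or −0.39 relative to genes of similar half-life). Its synthesis rate was 721 in male against 1276 in young female cells (log2 ratio −0.82, or −0.54 relative to the median of all genes). Its half-life was 1.89 against 1.65 h (0.20, or −0.07 relative to that median). Relative to genes of similar half-life the half-life ratio was 0.06, so its direction turned only with centring on the median. TIA1 and TIAL1, the paralogous translation silencers, were also made at lower rates. Synthesis of TIAL1 was 633 in male against 1175 in young female cells (log2 ratio −0.89, or −0.61 relative to the median of all genes), and its half-life was 2.70 against 1.85 h (0.55, or 0.27 relative to that median). TIA1 had a synthesis rate of 475 against 691 (−0.54, or −0.26) and a half-life of 2.32 against 2.09 h (0.15, or −0.12, so its direction turns). Their implied levels ended close together, at 0.763-fold for TIA1 and 0.786-fold for TIAL1, with log2 ratios of −0.39 and −0.35, or −0.21 and −0.17 relative to genes of similar half-life. As listed, these 3 genes had an absolute log2 ratio of synthesis rate of at least 0.5 in male cells, a size that 41.1% of all genes reached. With the young female values of the age table ZFP36 joined them at −0.53, and relative to the median of all genes ZFP36L2 was past that size (0.65) and TIA1 was not. Relative to genes of similar half-life, TIAL1 (−0.49), PUM2 (−0.44) and TIA1 (−0.13) were all under that size and ZFP36L2 (0.69) was past it.

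The ZFP36 family did not differ from young female cells as one in this comparison. ZFP36L2 had a synthesis rate of 15658 in male against 12116 in young female cells (log2 ratio 0.37, or 0.65 relative to the median of all genes), and its half-life of 0.602 against 0.637 h left an implied level 1.22-fold higher (0.29 on the log2 scale, or 0.64 relative to genes of similar half-life). ZFP36L1 had a synthesis rate of 11555 against 12201, which is below young female cells as listed (−0.08) and above them relative to the median (0.20). Its half-life was 0.564 against 0.689 h and its implied level 0.775-fold, or −0.02 on the log2 scale relative to genes of similar half-life. ZFP36 had the longer half-life in male cells, 1.16 against 0.918 h (log2 ratio 0.33, or 0.06 relative to the median of all genes), with a synthesis rate of 1194 against 1634 (−0.45, or −0.17) and an implied level of 0.921-fold. Relative to genes of similar half-life, the half-life of ZFP36 had a log2 ratio of 0.35. Its level had a log2 ratio of 0.23 on that basis, so the direction of its level depends on the centring.

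The other 3 members were ELAVL1, KHSRP and ZC3H12A. The half-life of ELAVL1 was 4.23 against 3.43 h, and its synthesis rate 807 against 997, with log2 ratios of 0.30 and −0.31, near the medians of all genes. Its implied level was 0.999-fold. For KHSRP the half-lives were 3.36 and 3.35 h in male and young female cells, with synthesis rates of 2662 and 2753, for an implied level of 0.970-fold, while relative to the median of all genes its half-life ratio was −0.27 and its synthesis ratio 0.23. The half-life of ZC3H12A was 0.539 in male and 0.546 h in young female cells, and its synthesis rates were 1109 and 1326 (log2 ratio −0.26, or 0.02 relative to the median of all genes, so its direction turns). Its implied level was 0.825-fold, and 0.07 log2 units higher relative to genes of similar half-life.

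**Figure D3:**
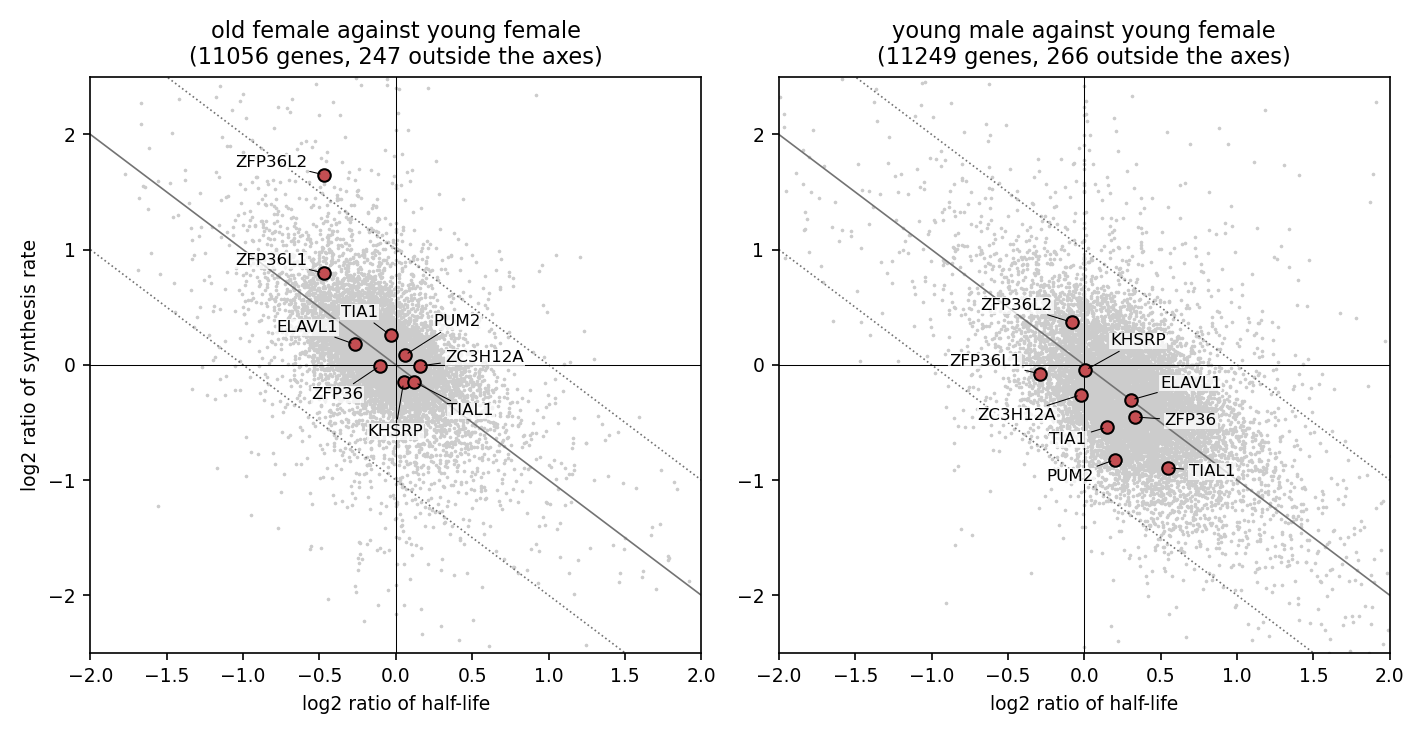
Log2 ratio of synthesis rate against log2 ratio of half-life for all listed genes (grey) and the 9 genes (red), old against young female (left) and young male against young female (right). The solid diagonal marks an unchanged implied level and the dotted ones a 2-fold change. ZFP36L2 lies past the upper dotted line on the left, at −0.47 and 1.65, and no gene of the 9 does on the right.

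Synthesis rate and half-life had ratios of opposite sign for 7 of the 9 members in each comparison, against 70.4% of all genes by age and 76.2% by sex. The exceptions were ZFP36 and PUM2 by age and ZFP36L1 and ZC3H12A by sex. Both comparisons use the same young female samples. Side by side, the log2 ratios of implied level in old and male cells were 1.18 and 0.29 for ZFP36L2, 0.33 and −0.37 for ZFP36L1, −0.11 and −0.12 for ZFP36, 0.15 and −0.28 for ZC3H12A, and 0.14 and −0.62 for PUM2. They were −0.09 and −0.0016 for ELAVL1, −0.10 and −0.04 for KHSRP, 0.22 and −0.39 for TIA1, and −0.03 and −0.35 for TIAL1. Relative to genes of similar half-life they were 1.14 and 0.64 for ZFP36L2, 0.28 and −0.02 for ZFP36L1, and −0.15 and 0.23 for ZFP36. For ZC3H12A and PUM2 they were 0.11 and 0.07, and 0.12 and −0.39. The directions by sex of ZFP36 and ZC3H12A thus turn with the centring. With 1 value per group, the difference between the effects of age and sex was not tested.

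Genes with the most similar kinetics were sought among 10274 named genes in both tables, by the distance over 6 values, the log2 half-life and log2 synthesis rate in the 3 groups, with young female values from the age table. The rates enter unscaled for transcript length, so a match holds for the rates as deposited. PUM2 had the closest neighbour, ZKSCAN8, at a distance of 0.18 log2 units, and TIA1 was next with ARIH1 at 0.23 and SEC24B at 0.23. TIAL1 lay close to RAD52 and UMPS (both 0.24), ZFP36 to KTI12 (0.25) and BICRAL (0.32), and ELAVL1 to DGCR8 (0.25) and RBFOX2 (0.30). The second gene for PUM2 was SWAP70 (0.27). KHSRP was nearest to RAB11FIP5 (0.39) and CHD4 (0.51), ZC3H12A to FAM222B (0.59) and PLAGL2 (0.62), and ZFP36L1 to TENT5A (0.61) and FZD8 (0.74). The nearest gene to ZFP36L2 was ZFP36L1 itself, at 0.96, the largest distance to a nearest gene among the 9. AMOTL2 followed at 1.11, but its young female half-life was 0.605 h in the age table and 0.0990 h in the sex table, so that match holds for the age table.

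The wider pathway was described with 5 further gene lists, by counts and medians. The lists were chosen with earlier results of these data known, so their counts beside those of all genes are descriptions only. The median log2 ratio of implied level over all genes was 0.00 by age and 0.01 by sex, with 49.3% and 49.5% of genes lower. The deadenylation and decay enzymes that these proteins recruit, 38 genes all in both tables, had 0 members past the 2-fold threshold in any parameter by age (against 3.53% of all genes in half-life, 7.52% in synthesis rate, 4.12% in implied level) and a median log2 ratio of implied level of 0.01. By sex 34 of the 38 had a lower implied level in male cells, with a median of −0.24 and 0 past the threshold (4.61% of all genes), but relative to genes of similar half-life 24 were lower and the median was −0.06. In this list EDC3, a decapping cofactor, had a half-life of 0.0689 h in male against 0.856 h in young female cells and a synthesis ratio of 2.65. Both half-lives were under 1 h, outside the range set for what the labelling can resolve. No repeat estimate of the male value was available, so the sizes of these 2 ratios cannot be relied on. For DIS3, an exosome nuclease, the half-life was 5.53 h in male against 2.30 h in young female cells and the synthesis ratio −1.07. Its level ratio was 0.20, so its implied level was higher in male cells. PAN3, a deadenylase subunit, had a synthesis ratio of −1.04, a half-life ratio of 0.71 and a level ratio of −0.33. In synthesis rate by sex 1 of the 38 was past the threshold upward and 3 downward (10.5%, against 12.2% of all genes). Relative to the median of all genes the synthesis ratios of DIS3 and PAN3 were −0.79 and −0.76, under the threshold. The implied level of EDC3 had a log2 ratio of −0.99, −1.06 with the young female values of the age table, which is past it, and −0.64 relative to genes of similar half-life.

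Among transcripts known as targets of ARE-binding proteins 33 of 41 were listed, and most had lower implied levels in old cells. This list too was chosen with earlier results known, so its difference from all genes is a description and was not tested. TNF, CXCL8 and IL1B were among the 8 in neither table. By age 25 of the 33 were lower, with a median log2 ratio of −0.27 against 0.00 for all genes, 6 past the threshold downward and 0 upward (18.2%, against 4.12% of all genes). Synthesis rates had a median of −0.34 against 0.08 for all genes, with 8 past it downward and 1 upward (27.3% in all, against 7.52% of all genes). With the young female values of the sex table the median was −0.17, with 5 past it downward and 2 upward. Half-lives had a median of −0.12 against −0.08 for all genes, and it was 0.02 relative to genes of similar half-life, so its direction turns. The lowest level ratios were those of MMP1, a collagenase (5.57-fold lower), and PLAU, the urokinase protease (4.59-fold lower). The half-life of MMP1 in young female cells was at the ceiling of the tables, 69.3 h. IL6 and NFKBIZ were the 2 named for higher levels (log2 ratios 0.28 and 0.06), with half-life ratios of 4.75 and 2.72. Those rested on young female half-lives of 0.0230 and 0.0680 h in the age table, which in the sex table were 0.780 and 0.655 h for the same samples. With the latter, the half-life ratios were −0.33 and −0.55 and the synthesis ratios 0.63 and 0.66, in place of −4.47 and −2.66.

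By sex 27 of the 33 targets had a lower implied level in male cells (median −0.34, 4 past the threshold downward and 2 upward, which is 18.2% against 4.61% of all genes). Relative to genes of similar half-life 18 were lower and the median was −0.01. CCL20, a chemokine, was 4.77-fold lower and LIF, a cytokine, 3.11-fold lower. MMP13, a collagenase of cartilage, was 2.37-fold higher. The median half-life of these targets was 1.39 h in young female cells of the age table and 12 of the 33 were under 1 h, against 1.65 h and 4 of 9 for the regulators themselves.

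**Figure D4:**
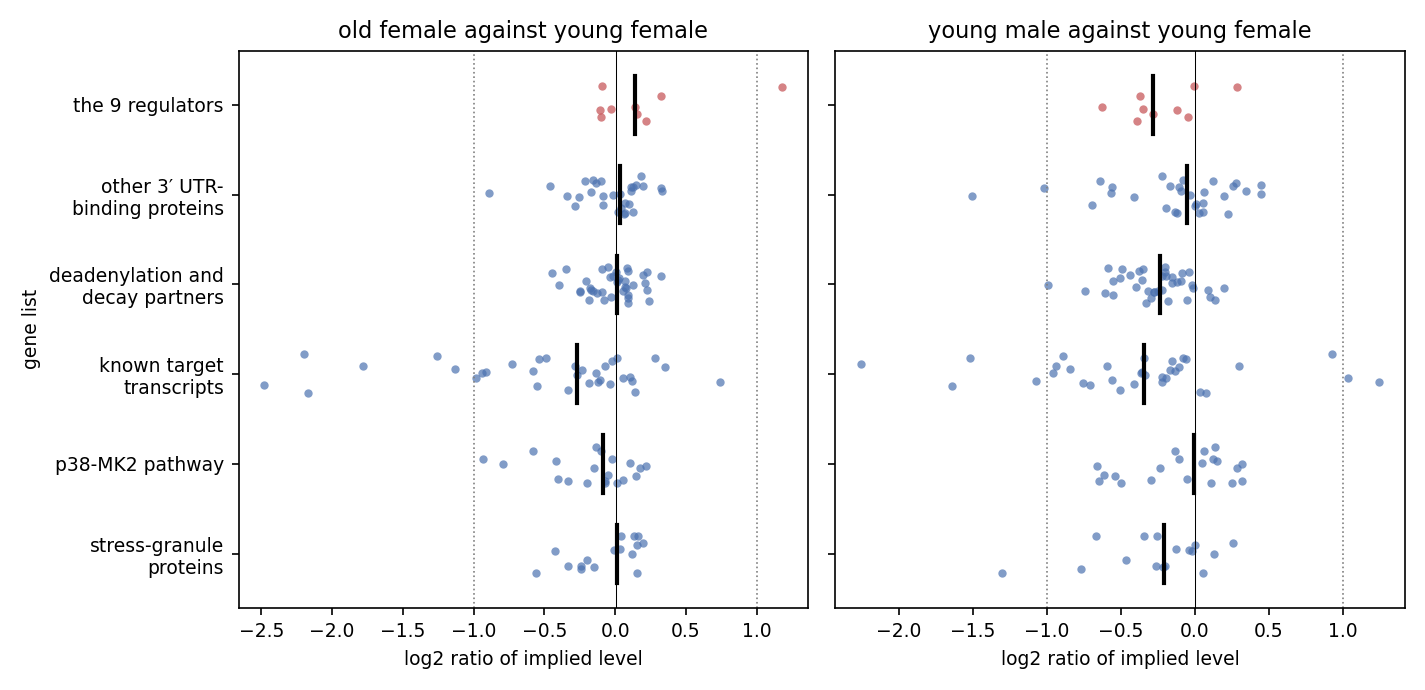
Log2 ratio of implied level for each gene of the 9 regulators (red) and of 5 pathway lists (blue), old against young female (left) and young male against young female (right), with a thick bar at each list's median and dotted lines at a 2-fold change. By age the medians run from −0.27 for the known targets to 0.14 for the 9 regulators, and ZFP36L2 is the one red point past a dotted line.

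Other proteins that bind 3′ untranslated regions numbered 29 of 40 in the age table and 30 in the sex table. Implied levels of this list had a median log2 ratio of 0.04 by age, with 0 past the threshold (4.12% of all genes), and −0.05 by sex, with 2 past it downward (6.67%, against 4.61% of all genes), or 1 relative to genes of similar half-life. These 2 were ZC3H12C, a relative of ZC3H12A (2.83-fold lower in male cells), and CPEB2, a regulator of polyadenylation and translation (2.03-fold lower, or −0.67 on the log2 scale relative to genes of similar half-life). By age CPEB2 had a half-life of 0.0125 h in old against 1.76 h in young female cells, with an implied level 1.25-fold higher. The old value lies far below 1 h, outside the range set for what the labelling can resolve. No repeat estimate of it was available, so the size of this half-life difference cannot be relied on. IGF2BP2, a binder of 3′ regions that stabilises RNA, had a synthesis ratio of −1.34 by age and a level ratio of −0.89. By sex its synthesis ratio was −3.03, its half-life ratio 2.46 and its level ratio −0.57. Its young female half-life was 11.4 h, so a ratio of that size puts the male value past the 24 h limit set for the labelling. In synthesis rate by sex 3 genes of this list were past the threshold downward and 0 upward (10.0%, against 12.2% of all genes).

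For the kinase pathway that phosphorylates the ZFP36 proteins, p38 and MK2 with the phosphatases and 14-3-3 proteins that act beside them, 20 of 21 genes were listed. Implied levels had a median of −0.09 by age and 0.00 by sex, with 0 past the threshold in either (4.12% and 4.61% of all genes). DUSP10, a phosphatase of p38, had a synthesis ratio of 1.94 and a half-life ratio of −2.34 by age. Its half-life in old cells, 0.284 h, was under the 1 h set as the lower limit of what the labelling can resolve. In male cells the synthesis ratios of MAPK11, PPP2R1B and MAP2K6 were −1.84, −1.05 and −1.33 (3 of 20 past the threshold, or 15.0%, against 12.2% of all genes), and that of PPP2R1B was −0.77 relative to the median of all genes. Their level ratios were 0.32, −0.61 and −0.54. The half-life of MAPK11 was 47.0 h in male against 10.5 h in young female cells, and the male value lies past the 24 h limit set for the labelling. Relative to genes of similar half-life 1 of the 20 was past the threshold for synthesis rate, downward. Stress-granule proteins, where TIA1 and TIAL1 gather, had 0 of 16 members past the threshold in any parameter by age (3.53% to 7.52% of all genes), with a median level ratio of 0.01. By sex all 16 had a lower synthesis rate in male cells, with a median of −0.58 (71.1% of all genes were lower, with a median of −0.28), and 13 of the 16 were lower relative to the median of all genes. For implied level 1 of the 16 was past the threshold (6.25%, against 4.61% of all genes), EIF2AK2, the interferon-induced kinase PKR, at 2.46-fold lower.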

How the data were processed

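RNA from 13 chondrocyte cultures was alkylated with iodoacetamide for 15 min so that incorporated 4sU is read as a base change, and poly(A)-selected libraries that keep strand were prepared, per the labels' protocols. Reads were processed with cutadapt 4.5 and STAR 2.5.3 with the EquCab 3.0 build, per the submitters' processing notes; the kinetic model, the gene filter and the way replicates were combined are not given in the sources used here. The authors deposited 1 synthesis rate and 1 half-life per gene and group, with a half-life ceiling of 69.3 h. The column headed Young in the age table was read as young female, because the labels assign those samples to that table.

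From these, log2 ratios and implied levels were computed over each whole table with pandas 2.3.3, without pseudocount or filter, and checked on data with planted ratios. Since the tables held group values, the planned tests per sample were not run. The members and lists were chosen with earlier results of these data known. Named genes were the 9 members, their 2 nearest genes, and of each list the 2 highest and 2 lowest ratios of implied level among genes past the threshold in any parameter; a gene that this rule names is not reported here. Alternatives were a threshold of 0.5, centring on the median or within 10 bins of half-life (taken from the group outside the ratio), young female values taken from the second table in place of the first and the reverse, half-lives of 1 to 24 h, and the upper 75% of genes by synthesis rate. Reference sequences were not analysed here.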

Additional observations from a re-analysis of the deposited data

How the results depend on the processing

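With no replicate spread, the limit for a change was set at 1.5 times for a count and 0.1 log2 units for a ratio. ZFP36L2 stayed past the threshold for synthesis rate and implied level by age in each alternative that admitted it. With half-lives of 1 to 24 h it was not admitted, and 0 of 5 members passed in either parameter; the median level ratio of those 5 was −0.029. At a threshold of 0.5, 2 members passed for synthesis rate by age (23.0% of all genes did), and by sex 1 passed for half-life (TIAL1; 31.8%), 3 for synthesis rate (41.1%) and 1 for implied level (PUM2; 2810 of 11249 genes). By sex, centring on the median of all genes moved the median ratio of the members to −0.12 for half-life and −0.027 for synthesis rate. Centring within half-life bins gave −0.0062 (half-life), 0.059 (synthesis rate) and −0.017 (implied level), and the 1 to 24 h range moved that of synthesis rate to −0.54. Young female values from the other table and the filter on synthesis rate changed no count or median of the members beyond these limits. No paired analysis was possible because the tables hold 1 value per group and no column for a sample; leaving out samples was not possible for the same reason. Depth is unknown, so no limit of detection can be given.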
